A study of Mus musculus with 4 samples.

Results

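Crtam, Sidt1, Rgs11, Tanc1, Fgf13, Lcn4, Ppic, Fam71b, Nsg2 and Dapl1 are 10 protein-coding genes, of the 53801 genes in each deposited table, picked because their reads were far more abundant in circulating tumor-reactive lymphocytes (CTRL) than in the residual population, in one or both of a pair of tumour models. They were chosen on these same counts, so their CTRL over residual ratios are given as a description and are not tested. All 10 had a row in both tables.

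RNA was sequenced from primary blood cells of wild-type mice in 2 tumour models, B16, a melanoma line, and CT-26, a colon carcinoma line. The CTRL group of each model was sorted for binding to multimers, reagents in which several peptide-loaded MHC molecules are joined so that they stick to T cells with a fitting receptor. The residual group of each model was likewise labelled CD8+, and every sample, residual included, carried the treatment label multimer-binding. There was 1 library for each of these 4 groups, which leaves no replicate error, and no test was run. The labels give no mouse strain, age, peptide, time or number of animals, so tumour, host mice and library cannot be told apart between the models.

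Most of these genes are better known outside the T cell. Fgf13 is a fibroblast growth factor homologous factor, which is not secreted and binds voltage-gated sodium channels and microtubules inside the cell. Nsg2 and Tanc1 are known from neurons, Rgs11 from the retina, Lcn4 from nasal and vomeronasal glands of the mouse and Fam71b from the testis. Crtam is the one member named for T cells, where activated CD8+ cells and NK cells carry it. In the mouse, Dapl1 and Nsg2 transcripts are also known from naive T cells, which circulate without having met antigen.

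The promoters of Dapl1, Tanc1, Lcn4 and Nsg2 are shown because Dapl1 and Tanc1 lie next to each other on chromosome 2, and because the windows of Lcn4 and Nsg2 held letters of motifs bound by T-cell transcription factor families. Such letters were not particular to Lcn4 and Nsg2, since windows of Fam71b, Sidt1, Tanc1 and Fgf13 held some too. Each line gives the 250 bases before the RefSeq start, 5′ to 3′ on the gene's own strand, build GRCm38.p6. Capitals mark the TATA box TATAAA, the TCF/LEF core CTTTGA, the E-box CAGGTG and the KLF motif CCACACCC, searched on both strands. The windows are chr2:59484403-59484652 on the plus strand (Dapl1), chr2:59611792-59612041 on the plus strand (Tanc1), chr2:26671283-26671532 on the minus strand (Lcn4) and chr11:32000169-32000418 on the plus strand (Nsg2).
Dapl1: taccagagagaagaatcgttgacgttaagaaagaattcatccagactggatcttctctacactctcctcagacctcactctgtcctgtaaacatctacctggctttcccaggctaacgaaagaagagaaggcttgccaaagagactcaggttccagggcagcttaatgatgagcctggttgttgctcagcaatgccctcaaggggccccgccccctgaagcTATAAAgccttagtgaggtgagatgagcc
Tanc1: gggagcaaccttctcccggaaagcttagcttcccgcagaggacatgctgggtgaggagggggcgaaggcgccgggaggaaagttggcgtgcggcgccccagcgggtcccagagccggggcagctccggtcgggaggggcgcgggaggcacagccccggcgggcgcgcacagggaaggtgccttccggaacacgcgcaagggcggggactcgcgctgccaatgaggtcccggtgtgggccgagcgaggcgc
Lcn4: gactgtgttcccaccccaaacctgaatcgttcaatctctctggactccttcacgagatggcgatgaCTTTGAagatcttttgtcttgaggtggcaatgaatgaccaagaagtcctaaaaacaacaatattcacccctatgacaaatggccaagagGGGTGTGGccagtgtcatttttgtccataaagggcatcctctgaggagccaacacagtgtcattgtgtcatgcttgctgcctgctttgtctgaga
Nsg2: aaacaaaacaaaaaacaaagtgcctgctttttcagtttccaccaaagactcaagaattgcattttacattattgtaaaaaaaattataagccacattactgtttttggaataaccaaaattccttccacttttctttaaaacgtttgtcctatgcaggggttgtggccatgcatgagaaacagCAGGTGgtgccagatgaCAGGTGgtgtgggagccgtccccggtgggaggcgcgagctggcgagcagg

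RefSeq windows were found for 7 of the 10 genes, and Fgf13, Tanc1 and Nsg2 had more than 1. With the start base counted as 0, the TATA box of Dapl1 began at position -29, the CTTTGA of Lcn4 at -184, its KLF motif (on the other strand) at -95, and the 2 E-boxes of Nsg2 at -67 and -50. The printed window of Tanc1 held none of these 4 motifs. Its GC content was 73.2%, against 50% in the window of its neighbour Dapl1, 46.8% in that of Lcn4, 43.6% in that of Nsg2 and a median of 52.4% over 32851 windows of the same length. In those 32851 windows the TATA box was present in 12.4%, CTTTGA in 13.8%, CAGGTG in 17.2% and CCACACCC in 3.20%. CAGGTG was present for 3 of the 7 genes (Nsg2, Sidt1 and Fam71b), and each of the other 3 motifs for 1 of the 7, so no marked motif was shared by all. Of the other motifs searched, the GC box GGGCGG was present for 3 of the 7 genes, Dapl1, Fgf13 and Tanc1 (32.7% of all windows). The RUNX motif TGTGGT was present for Tanc1 (14.0%), in its window that is not printed. The ETS motif CCGGAAG was present for Tanc1 (6.91%), on the other strand of its printed window and not marked there. The NFAT motif TTTTCC was present for Fgf13 (20.4%). Counted by window, as the shares are, CAGGTG was in 3 of the 12 windows of the 7 genes, GGGCGG in 4 and each other motif in 1. The marked motifs do not overlap one another in the printed windows, and a match in letters is a description only.

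Depth ranged from 37166063 to 74879891 reads in genes per library. The CD8 label was read against its markers first: Cd8a, a chain of the CD8 coreceptor, had 1173 reads per 1000 reads of Cd3e, which encodes CD3 epsilon of the T-cell receptor complex, in B16 CTRL and 39.2 in the B16 library labelled residual. In CT-26 it had 982 in CTRL and 50.2 in the library labelled residual. The residual libraries thus held few CD8 transcripts per T-cell transcript, which goes against their label if it is read as CD8+ cells. The 15 measured genes of a T-cell identity list summed to 4657 counts scaled to 1e6 reads (CPM) in B16 CTRL and 883 in B16 residual, and to 9213 in CT-26 CTRL and 2718 in CT-26 residual. A list of 12 B-cell genes summed to 8107 CPM in B16 CTRL against 1036 in residual, and to 301 in CT-26 CTRL against 1051 in residual. Erythroid, neutrophil, platelet, monocyte and NK cell lists had 0 genes higher in either CTRL library, and the 9 measured erythroid genes summed to 13271 CPM in B16 CTRL against 426514 in residual. Dendritic cell genes summed to 349 CPM in B16 CTRL against 151 in residual, and to 141 in CT-26 CTRL against 232 in residual. In bulk RNA, fewer cells of a type and less RNA per cell cannot be told apart, and the part of these other cells in the ratios below was not tested.

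A gene is called higher here when its log2 ratio of normalised counts (pseudocount 1), CTRL over residual, was at least 1 and its higher library reached 10 CPM. By this rule 8 of the 10 genes were higher in B16 CTRL and 10 of the 10 in CT-26 CTRL. Of all genes that reached 10 CPM, 26.8% were higher in B16 (9289 genes) and 14.5% in CT-26 (9514 genes). Both models were passed by 8 of the 10 genes, all but Rgs11 and Tanc1, and by 8.71% of the 8765 genes at that level in both. A log2 ratio of at least 2 was reached by 5 of the 10 genes in B16 (background 4.4%) and by 10 of 10 in CT-26 (background 2.19%). The same 5 genes, Crtam, Fgf13, Lcn4, Ppic and Fam71b, reached it in both models (background 0.662%). Scaling to total reads instead moved the median log2 ratio of all genes up by 0.84 in B16 and by 0.19 in CT-26. The background shares at a log2 ratio of 1 were then 63.6% in B16 and 20.8% in CT-26, and all 10 genes passed in both. The median log2 ratio of the 10 genes was 2.05 in B16 and 3.40 in CT-26, where all genes at that level had medians of 0.47 and 0.23. The genes were chosen for such ratios, so nothing is read from their excess. Their log2 ratios ran from 0.44 to 6.96 in B16 and from 3.11 to 4.28 in CT-26. In the authors' deposited table the log2 folds of these genes, CTRL over residual, were smaller for all 10 in both models, from 0.40 to 5.29 in B16 and from 2.60 to 3.39 in CT-26. Intervals after log2 ratios are 95% exact counting intervals of the raw-read ratio, which cover counting error only.

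**Figure D1:**
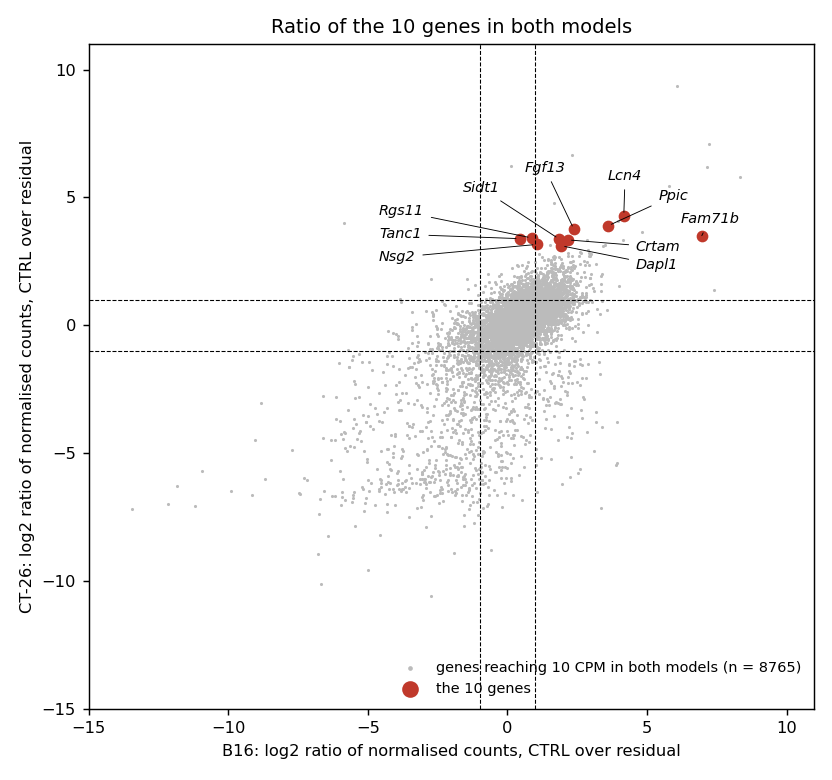
Log2 ratio of normalised counts, CTRL over residual, in B16 (x axis) and CT-26 (y axis) for the 8765 genes that reached 10 CPM in both models (grey) and the 10 genes (red); dashed lines mark log2 ratios of 1 and -1. The 10 genes lie in a narrow band of the CT-26 axis, 3.11 to 4.28, and spread over the B16 axis, with Tanc1 at 0.44 and Fam71b at 6.96.

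Of the cell-surface and membrane proteins, Crtam (ENSMUSG00000032021, chromosome 9, 40969691 to 41004628, GRCm38) is an immunoglobulin-family receptor that binds Cadm1 on other cells. Crtam had 664 reads in B16 CTRL and 86 in B16 residual, and 5499 reads in CT-26 CTRL and 322 in CT-26 residual. As normalised counts this was 508 in CTRL against 112 in residual in B16, a log2 ratio of 2.17 (1.85 to 2.52), and 4236 against 418 in CT-26, a log2 ratio of 3.34 (3.18 to 3.51). Both CTRL libraries were thus the high ones, and the ratio was larger in CT-26 by 1.17. Sidt1 is a multi-pass membrane protein related to SID-1, which takes up double-stranded RNA in Caenorhabditis elegans. It had 50331 reads in CT-26 CTRL against 2875 in residual, and 4650 in B16 CTRL against 757 in residual. Its log2 ratios were 1.85 (1.74 to 1.96) in B16 and 3.38 (3.32 to 3.43) in CT-26. An antisense noncoding gene, Gm26732, overlaps Sidt1 and had 1483 reads in B16 CTRL against 111 in residual, and 7783 in CT-26 CTRL against 1274 in residual. No source used here states the strand setting of the counting, and without it the reads of Sidt1 and Gm26732 cannot be told apart.

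Among the signalling and scaffold proteins, Rgs11 (ENSMUSG00000024186, chromosome 17, 26202951 to 26211324) is a regulator of G-protein signalling of the R7 class, which shortens signals from receptors coupled to Gi and Go proteins, and Tanc1 is a scaffold protein of the postsynaptic density. These 2 genes did not pass the rule in B16. Rgs11 had 381 normalised counts in B16 CTRL and 209 in residual, a log2 ratio of 0.86 (0.61 to 1.13), and 6661 in CT-26 CTRL and 623 in residual, a log2 ratio of 3.42 (3.29 to 3.55). Tanc1 had 544 in B16 CTRL and 402 in residual, a log2 ratio of 0.44 (0.24 to 0.63), and 6976 in CT-26 CTRL and 666 in residual, a log2 ratio of 3.39 (3.26 to 3.52). Tanc1 sat close to the middle of the B16 genes, above 48.4% of those that reached 10 CPM, and above 99.6% of those in CT-26. Fgf13 (ENSMUSG00000031137, chromosome X, 59062145 to 59568071), by contrast, was high in the CTRL library of both models. It had 982 reads in B16 CTRL and 110 in residual, and 6578 in CT-26 CTRL and 288 in residual, with log2 ratios of 2.38 (2.10 to 2.69) and 3.76 (3.59 to 3.94).

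The proteins of the secretory route gave the largest B16 ratios. Lcn4 (ENSMUSG00000026919, chromosome 2, 26667674 to 26671282) is a lipocalin, a small secreted carrier of lipophilic molecules. It had 1004 reads in B16 CTRL and 32 in residual, and 2051 in CT-26 CTRL and 62 in residual, with log2 ratios of 4.17 (3.69 to 4.76) and 4.28 (3.93 to 4.68). Ppic is cyclophilin C, a proline isomerase of the endoplasmic reticulum that binds cyclosporin A. It had 990 reads in B16 CTRL and 47 in residual, and 4188 in CT-26 CTRL and 167 in residual, with log2 ratios of 3.60 (3.20 to 4.08) and 3.89 (3.67 to 4.13). For both genes the counting intervals of the models overlapped. Fam71b belongs to a family of Golgi proteins that bind the small GTPase Rab2. It had 588 reads in B16 CTRL and 2 in residual, a log2 ratio of 6.96 on the pseudocount scale with a wide interval for the raw reads (5.57 to 10.48). In CT-26 it had 1027 reads in CTRL and 53 in residual, a log2 ratio of 3.50 (3.12 to 3.95). Fam71b was the only one of the 10 genes with a larger ratio in B16, and that ratio rests on 2 reads in the library labelled residual.

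Nsg2, an endosomal protein that sorts receptors in neurons, and Dapl1, a small protein related to the death-associated protein Dap, were above 10 CPM in all 4 libraries, as was Sidt1. Nsg2 was near that level in CT-26 residual, at 11.4 CPM. Nsg2 had 2210 normalised counts in B16 CTRL and 1072 in residual, a log2 ratio of 1.04 (0.93 to 1.16), so that its interval spans the limit of the rule. In CT-26 it had 6725 in CTRL and 752 in residual, a log2 ratio of 3.16 (3.04 to 3.29). Dapl1 had 3682 in B16 CTRL and 969 in residual, a log2 ratio of 1.92 (1.81 to 2.04), and 11138 in CT-26 CTRL and 1290 in residual, a log2 ratio of 3.11 (3.02 to 3.20). A list of 15 naive and central memory T-cell genes, which does not hold these 2 genes, had 7 of 15 higher in B16 and 10 of 15 in CT-26, with medians of 0.84 and 1.34 and 0 lower in either model, beside the background of 26.8% and 14.5% higher. The T-cell identity list had 12 of 15 higher in B16 and 14 of 15 in CT-26, with medians of 1.46 and 1.39, so nothing particular to the naive list is read from its counts.

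Levels were compared between genes only per kilobase of merged exon. On this scale, in CPM per kb, Dapl1 led in all 4 libraries, with 191 in B16 CTRL, 28.0 in B16 residual, 284 in CT-26 CTRL and 28.8 in CT-26 residual. The next genes in B16 CTRL were Lcn4 at 34.9 and Sidt1 at 22.3, followed by Ppic at 19.0 and Nsg2 at 18.7, whose counting intervals overlapped. In CT-26 CTRL they were Sidt1 at 120, Ppic at 39.9 and Lcn4 at 35.4, followed by Nsg2 at 28.0 and Rgs11 at 27.5, again with overlapping intervals. Lcn4 had nearly the same level in both CTRL libraries, 35.4 in CT-26 and 34.9 in B16, while Sidt1 had 120 in CT-26 and 22.3 in B16. In the residual libraries the intervals were wider, and in B16 residual Lcn4 (1.06), Rgs11 (0.974), Ppic (0.857), Fgf13 (0.701), Tanc1 (0.541) and Crtam (0.429) followed one another with each interval overlapping the next. Fam71b was the lowest in both, at 0.0205 in B16 residual and 0.418 in CT-26 residual. The lowest CTRL level was that of Tanc1 in B16 CTRL, at 1.31, and of Fam71b in CT-26 CTRL, at 5.50. With 1 library each, nothing beyond counting error is known of this order.

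**Figure D2:**
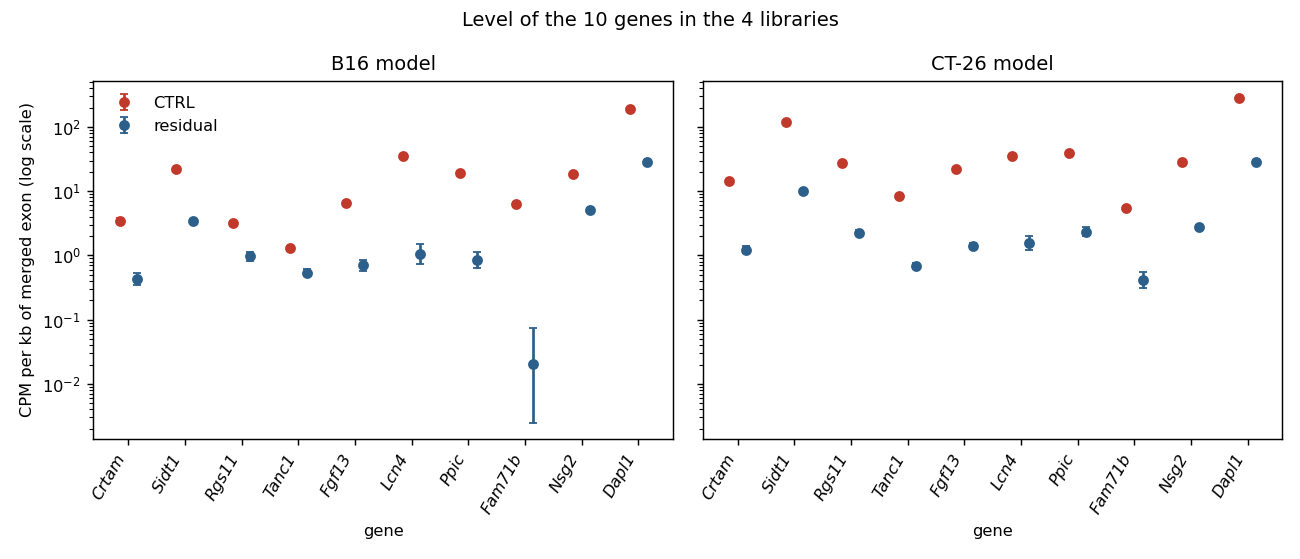
Level of the 10 genes as CPM per kb of merged exon (log scale) in CTRL (red) and residual (blue) libraries of B16 and CT-26; bars are 95% Poisson counting intervals, smaller than the point for most genes. Each CTRL point lies above its residual point, from 1.31 against 0.541 for Tanc1 in B16 to 284 against 28.8 for Dapl1 in CT-26.

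Since CTRL libraries held more T-cell RNA, reads were also set against Cd3e. In CT-26 all 10 genes stayed at least 1 log2 unit higher in CTRL when libraries were scaled to equal Cd3e, with log2 ratios from 1.21 (Dapl1) to 2.38 (Lcn4). In B16 only Fam71b (4.73), Lcn4 (1.93) and Ppic (1.37) did so. Of all genes that reached 10 CPM, 0.581% in B16 and 0.557% in CT-26 passed this limit under the same scaling. Fgf13 and Crtam followed Cd3e closely in B16, with 73.1 Fgf13 reads per 1000 Cd3e reads in CTRL against 66.3 in residual, and 49.4 Crtam reads against 51.8. In all, 6 of the 10 genes had fewer reads per Cd3e read in B16 CTRL than in B16 residual, Crtam, Sidt1 (346 against 456), Dapl1 (358 against 447), Nsg2, Rgs11 (37.1 against 96.4) and Tanc1. This count depends on the yardstick. Cd3e itself had a B16 log2 ratio of 2.25, against a median of 1.46 for the T-cell identity list. Per read of that list, 3 of the 10 genes were lower in B16 CTRL. The share of all genes lower per Cd3e read was not counted. Tanc1 had 52.9 reads per 1000 Cd3e reads in B16 CTRL and 186 in residual, but 162 in CT-26 CTRL and 57.7 in residual. Nsg2 had 215 in B16 CTRL and 495 in residual, and 156 in CT-26 CTRL and 65.2 in residual. When libraries were scaled to equal reads of Cd8a and Cd8b1, none of the 10 genes was higher in either CTRL library, since the coreceptor genes Cd8a and Cd8b1 had larger log2 ratios themselves (7.13 and 8.32 in B16, and 6.19 and 5.80 in CT-26). Fam71b in B16 came closest to them, with a log2 ratio of -0.29 under this scaling. Of all genes that reached 10 CPM, 0 of 9289 in B16 and 0.0526% of 9514 in CT-26 were higher under it. Nothing particular to the 10 genes is therefore read from their count of 0. Sidt1, for one, had 94.0 reads per 1000 reads of Cd8a and Cd8b1 in B16 CTRL and 6008 in residual, and 291 in CT-26 CTRL and 1689 in residual.

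**Figure D3:**
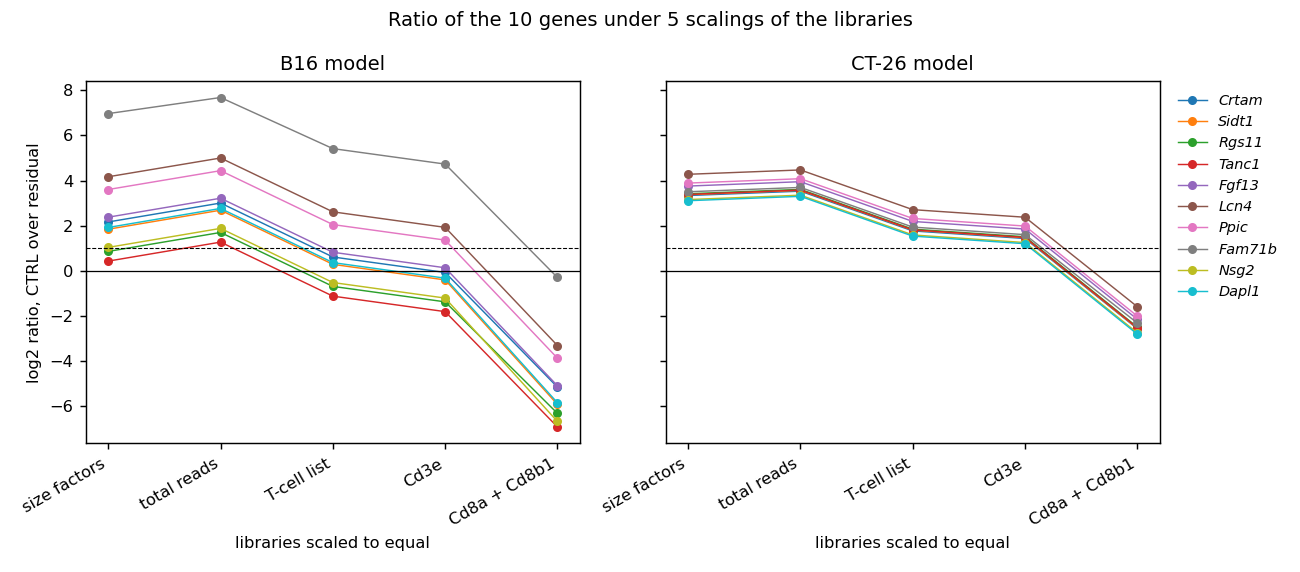
Log2 ratio of each of the 10 genes, CTRL over residual, with libraries scaled by size factors, total reads, the T-cell list, Cd3e, or Cd8a and Cd8b1; the dashed line marks a log2 ratio of 1. With Cd3e equal, all 10 genes stay above 1 in CT-26 and 3 of 10 (Fam71b, Lcn4 and Ppic) in B16, and with the coreceptor genes equal all 10 are below 0 in both.

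Between the models, the ratio was larger in CT-26 for 9 of the 10 genes, by 0.11 for Lcn4 up to 2.95 for Tanc1, as it was for 34.2% of the 8765 genes at 10 CPM in both models. The counting intervals of the models did not overlap for 8 of the 10 genes and for 80.8% of those 8765, so the count of 8 is near the background. The difference was not tested, since each model has 1 library per group. The genes were also chosen on these ratios, which ranked 19 to 48 of 9514 genes in CT-26 and 5 to 4792 of 9289 in B16. Nothing is therefore read from the ratio being larger in CT-26 for 9 of the 10. Per 1000 Cd3e reads, the CT-26 CTRL library held more Rgs11 (154 against 37.1 in B16 CTRL), Tanc1 (162 against 52.9) and Sidt1 (898 against 346). It held less Fam71b (18.3 against 43.8) and Lcn4 (36.6 against 74.8), and Ppic was at 74.8 against 73.7. The order of the residual libraries depended on the scale. Per Cd3e read, 9 of the 10 genes, all but Fam71b, were lower in CT-26 residual than in B16 residual, for instance 65.2 Nsg2 reads against 495 and 112 Dapl1 reads against 447. Cd3e itself had 175 CPM in CT-26 residual and 42.5 in B16 residual. In CPM, 9 of the 10 genes, all but Nsg2, were higher in CT-26 residual, for instance Sidt1 at 56.6 against 19.4 and Dapl1 at 19.6 against 19.0, while Nsg2 was at 11.4 against 21.0. The erythroid genes alone held 109337 CPM in CT-26 residual and 426514 in B16 residual, and CPM was not corrected for this. Between the CTRL libraries Cd3e had 748 CPM in CT-26 and 361 in B16, and 9 of the 10 genes, all but Fam71b, had more CPM in CT-26. Nsg2 and Dapl1 were among them, at 117 against 77.7 CPM and 193 against 129 CPM, but had fewer reads per 1000 Cd3e reads in CT-26 CTRL (156 against 215 for Nsg2, and 258 against 358 for Dapl1). For the counts in CPM and per Cd3e read, the share of all genes was not counted, so nothing is read from them.

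**Figure D4:**
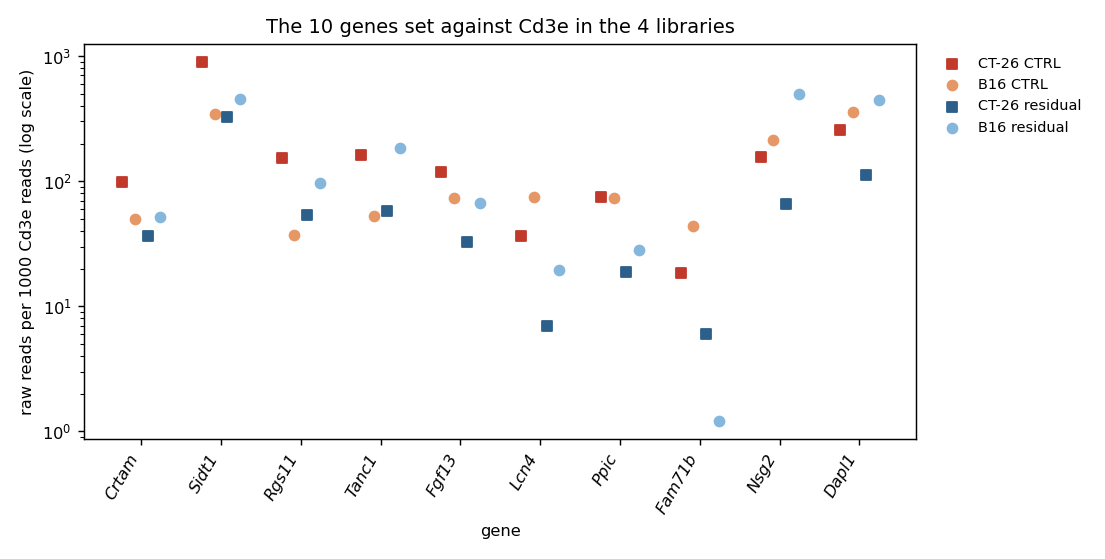
Raw reads of each of the 10 genes per 1000 Cd3e reads (log scale) in the CTRL libraries (red and orange) and the residual libraries (dark and light blue) of CT-26 and B16. Rgs11 and Sidt1 are highest in CT-26 CTRL (154 and 898), Fam71b and Lcn4 in B16 CTRL (43.8 and 74.8), and Tanc1, Nsg2 and Dapl1 in B16 residual (186, 495 and 447). This order holds for Cd3e reads only. Per 1000 T-cell list reads, Dapl1 was highest in B16 CTRL (27.8) and Tanc1 in CT-26 CTRL (13.1), while Nsg2 stayed highest in B16 residual (23.8).

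The relatives and partners of the 10 genes, 95 measured genes in all, mostly did not pass the rule in CTRL. Of these, 30 reached 10 CPM in B16, with 6 higher and 5 lower, and 29 in CT-26, with 2 higher and 3 lower, beside the background of 26.8% and 14.5% higher and 11.7% and 16.3% lower. The closest match was Cd96, a receptor of nectin-family ligands on T and NK cells, listed with Crtam. Cd96 had 4098 reads in B16 CTRL and 497 in residual, and 19444 in CT-26 CTRL and 2061 in residual, so its log2 ratio was 2.27 in B16 and 2.48 in CT-26. Cd226, an activating receptor for the ligand Pvr, had log2 ratios of 0.997 in B16, just under the limit, and 2.49 in CT-26. Cadm1, the ligand of Crtam, was below 10 CPM everywhere, with 54 reads in B16 CTRL against 36 in residual and 6 in CT-26 CTRL against 347 in residual. Pvr itself was lower in B16 (-1.26) and at -0.47 in CT-26.

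Gnb5, the beta subunit that R7 proteins such as Rgs11 need for their stability, had 36 reads in B16 CTRL against 52 in residual and 95 in CT-26 CTRL against 123 in residual, all under 10 CPM. The other R7 genes, Rgs6, Rgs7 and Rgs9, had at most 53 reads in any library. The RGS genes at that level included Rgs2, at log2 -1.96 in B16 and -2.92 in CT-26, Rgs18, at -1.69 and -5.18, and Rgs1, at -2.35 and -0.86, of which the last did not pass in CT-26. Rgs18 is known from platelets. Of the platelet genes at the level, 8 of 8 were lower in B16 and 5 of 5 in CT-26, with medians of -4.09 and -2.68. Of the monocyte genes, 6 of 10 were lower in B16 and 9 of 10 in CT-26, with medians of -1.35 and -5.67. The background was 11.7% lower in B16 and 16.3% in CT-26. Which cells gave the Rgs18 reads was not tested. The other homologous factors listed with Fgf13, Fgf11, Fgf12 and Fgf14, had at most 15 reads in any library. Of the sodium channel genes that Fgf13 proteins bind, Scn4a alone reached 10 CPM, with 679 reads in B16 CTRL against 87 in residual (log2 ratio 2.18). In CT-26 Scn4a had 131 reads in CTRL against 107 in residual.

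The lipocalin Lcn2, a granule protein of neutrophils, went the other way from Lcn4, at log2 -5.16 in B16 and -6.41 in CT-26. The other 9 genes of the neutrophil list were lower in both models too, where 11.7% of all genes in B16 and 16.3% in CT-26 were lower. The other 14 listed lipocalins had at most 86 reads in any library. Among the cyclophilins, 4 of 15 at the level were higher in B16, Ppil1 (2.11), Ppil2 (1.27), Ppid (1.13) and Ppie (1.06), and 0 of 15 in CT-26, where Ppil1 was at -0.09. Ppia, the abundant cytosolic cyclophilin A, was at 0.92 in B16 and 0.40 in CT-26. No relative of Fam71b reached 10 CPM, and neither did Tanc2, Nsg1 or Caly. Tanc2 had 67 reads in B16 CTRL against 58 in residual, and 516 in CT-26 CTRL against 78 in residual, so both Tanc genes had more reads in CT-26 CTRL. The other paralogues, Sidt2 (-0.08 in B16 and 0.51 in CT-26) and Dap (-0.31 and -0.43), did not pass the rule in either model.

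Markers of the tissues in which these genes are otherwise known were scarce. The 8 nervous-tissue genes summed to 7.67 CPM in B16 CTRL against 7.76 in residual, and to 2.11 in CT-26 CTRL against 1.32 in residual, with Rbfox3, Snap25, Syt1 and Nefl at 0 reads in both CTRL libraries. Tubb3 had the most of these reads, 205 in B16 CTRL against 119 in residual and 116 in CT-26 CTRL against 20. Gfap went the other way, with 2 against 40 in B16 and 2 against 12 in CT-26. The 8 male germ cell genes summed to 2.02 CPM in B16 CTRL against 1.79 in residual, and to 3.74 in CT-26 CTRL against 1.02 in residual. Of these, Tnp1 and Acrv1 were at 0 in all 4 libraries. Spaca1 alone gave 3.18 of the 3.74 CPM in CT-26 CTRL, with 238 reads against 44 in residual. Tnp2 had 24 reads against 1 there and Prm1 12 against 0, while Ddx4 had 6 against 7.

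Dapl1 (ENSMUSG00000026989, chromosome 2, 59484653 to 59505020) and Tanc1 (ENSMUSG00000035168, chromosome 2, 59612042 to 59846149) are adjacent protein-coding genes on the same strand of GRCm38 in GENCODE M21, and Tanc1 starts 107022 bp after Dapl1 ends. In B16 they differed, with log2 ratios of 1.92 for Dapl1 and 0.44 for Tanc1, and in CT-26 they were at 3.11 and 3.39. Pkp4, on the other side of Dapl1, was at 0.16 in B16 and at 1.44 in CT-26. Med7, a Mediator subunit 28943 bp after Fam71b (chromosome 11, 46396559 to 46407982), was at -0.88 in B16 and -1.20 in CT-26. Spice1, a centriole protein 13925 bp from Sidt1 (chromosome 16, 44240180 to 44333196) on the opposite strand, was at 1.45 in B16 and 2.11 in CT-26. Il9r, the gene for the interleukin 9 receptor next to Nsg2 (chromosome 11, 32000463 to 32059202), was at 2.41 in B16, with 1551 reads in CTRL against 170 in residual, and below 10 CPM in CT-26, with 82 against 160. Of 18 neighbouring protein-coding genes that are not among the 10, 8 reached 10 CPM in each model. Of these, 3 were higher and 0 lower in B16, where 26.8% of all genes at that level were higher, and 3 were higher and 1 lower in CT-26, where 14.5% were higher and 16.3% lower.

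The gene with the most similar pair of log2 ratios was sought for each of the 10 among 8316 protein-coding genes that reached 10 CPM in both models, by the distance between the 2 ratios, which come from 4 libraries. Crtam lay 0.072 from Rcn3, a calcium-binding protein of the endoplasmic reticulum (2.12 in B16 and 3.39 in CT-26), and Dapl1 lay 0.074 from Aqp3, a channel for water and glycerol (1.91 and 3.04). Rcn3 was also nearest to Sidt1 (0.27) and Fgf13 (0.45). Ggt1, a gamma-glutamyl transferase, was nearest to Lcn4 (0.31) and Ppic (0.38), and Taf4b, a TFIID subunit, to Nsg2 (0.37), Rgs11 (0.68) and Tanc1 (0.92). Fam71b had no close neighbour, with Gzmk, a granzyme, nearest at 2.16. Likeness of 2 ratios from 4 libraries is a description of these libraries.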

How the data were processed

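RNA of 4 libraries, 1 per population and model, was made with the Takara SMART-Seq v4 kit, per the labels' protocols. STAR 2.7.3a, HTSeq 0.11.2, DESeq2 and mm10 are named in the submitters' processing notes without a role. The authors deposited a table per model with raw read counts for 53801 genes and with normalised counts, a signal that equals the counts divided by 1 size factor per library (1.31 for CTRL and 0.766 for residual in B16, 1.30 and 0.770 in CT-26). The authors' deposited log2 fold, CTRL over residual, served as an alternative, and their deposited p-value was not used. The models were normalised separately, so levels across models are given only from raw reads, as CPM or per 1000 Cd3e reads.

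Log2 ratios of deposited normalised counts used a pseudocount of 1, and a gene was called at a log2 ratio of 1 and 10 CPM in its higher library. With 1 library per group and genes chosen on this contrast, no test was made. Ratio intervals (95%) are exact conditional binomial, and level intervals exact Poisson. Reads without molecular identifiers are not independent molecules, so both cover counting error only. The 10 genes and the lists of relatives, T-cell and other markers and motifs were chosen with earlier results of these data known. Of the list entries, 4 were not in the tables. From each list of relatives at most 3 genes past the rule were to be named, and Ppie, Ppia, Tanc2, Gnb5, Cadm1 and other relatives with values were added after their values were seen. The genes with the most similar ratios and the flanking genes followed a set rule, except Gm26732, added because it overlaps Sidt1, and 1 flanking gene is not reported here. Exon lengths and positions came from GENCODE M21 (GRCm38), which covers 99.8% of the gene identifiers, and promoters from RefSeq (GRCm38.p6). The ratio and its interval were tested on simulated counts. Python 3.11.15, numpy 2.4.6, pandas 2.3.3 and scipy 1.17.1 were used.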

Additional observations from a re-analysis of the deposited data

How the results depend on the processing

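The count of 10 genes higher in CT-26 CTRL was also 10 under total-read, Cd3e and T-cell list scaling, pseudocounts of 0.1 and 5, a level of 1 CPM or none, a log2 limit of 2, and the log2 fold of the authors' deposited table. The B16 count of 8 stayed between 7 and 10 under the other pseudocounts and levels, total reads and the authors' deposited fold. It was 3 with libraries scaled to equal Cd3e or to the T-cell list, and 5 at a log2 limit of 2. Of all genes that reached 10 CPM, 1.66% in B16 and 0.883% in CT-26 passed with T-cell list reads equal. By the authors' deposited fold, 22.7% passed in B16 and 11.8% in CT-26. Under scaling to equal Cd8a and Cd8b1, 0 of all 9289 genes passed in B16 and 0.0526% of 9514 in CT-26. Of the 10 genes, this scaling left 0 in both models. Every log2 ratio then turned negative, in B16 Crtam -5.14, Sidt1 -5.91, Rgs11 -6.30, Tanc1 -6.91, Fgf13 -5.08, Lcn4 -3.30, Ppic -3.86, Fam71b -0.29, Nsg2 -6.66 and Dapl1 -5.84, and in CT-26 Crtam -2.56, Sidt1 -2.54, Rgs11 -2.49, Tanc1 -2.52, Fgf13 -2.14, Lcn4 -1.58, Ppic -2.00, Fam71b -2.31, Nsg2 -2.74 and Dapl1 -2.80. With Cd3e equal, the B16 ratios that turned negative were Crtam -0.068, Sidt1 -0.40, Rgs11 -1.37, Tanc1 -1.80, Nsg2 -1.20 and Dapl1 -0.32. With T-cell list reads equal they were Rgs11 -0.68, Tanc1 -1.12 and Nsg2 -0.51. These reversals follow from the larger ratios of the scaling genes. The 20 ratios kept their sign with either pseudocount, where Fam71b in B16 ranged from 5.90 to 7.38. Fam71b, Lcn4, Ppic, Crtam and Fgf13 had 2 to 110 reads in B16 residual, which limits the precision of their B16 ratios. No replicate could be left out, and no paired analysis was possible because each group has 1 library and the labels give no replicate numbers.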
